A study of Homo sapiens with 47 samples.

Results

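H3K9me3, the trimethylation of lysine 9 on histone H3, was compared between the human melanoma line 451Lu in its parental form and a form of the same line labelled vemurafenib-resistant. Vemurafenib inhibits the mutated kinase BRAF, and 451Lu is an established melanoma cell line that is sensitive to it in its parental form. The comparison rests on 4 ChIP-seq libraries, 2 parental and 2 resistant, out of 8 H3K9me3 libraries with a deposited file and 47 samples in the series. Each ChIP library has an input library (sheared chromatin without antibody) with the same replicate number. No transgene is named for either group, and the labels say neither how resistance was obtained nor whether the replicates were separate cultures, so p-values measure only the spread between these libraries, which may be technical. Broad islands of enrichment from the 4 lists were merged wherever they overlapped, which gave 77124 regions on chromosomes 1 to 22 and X. A region was gained when both resistant and neither parental library called it and lost in the reverse case. There were 2362 gained regions, 13643 lost regions, 20432 regions called in all 4 libraries, here named common regions, and 40687 with another combination of calls.

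H3K9me3 is a mark of compacted, transcriptionally silent chromatin. It is written by the methyltransferases SUV39H1, SUV39H2 and SETDB1 and is bound by the HP1 proteins, which help it to spread over long domains. SETDB1 is brought to specific places by TRIM28 (KAP1) and the large family of KRAB zinc finger proteins, and the clusters of zinc finger genes are themselves among the best known H3K9me3 domains of human cells. The mark also covers satellite repeats, retrotransposons and gene-poor domains at the nuclear edge. It counts as a barrier to changes of cell identity.

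The islands held 13222196 to 18296612 ChIP reads and 12043839 to 13103946 input reads per library, and the size of the whole libraries was not known. Genes are named by windows in hg19, the build of the files, written from general knowledge to the nearest 0.1 Mb or finer because no hg19 annotation was used. All 8 windows around the melanocyte genes MITF, SOX10, PAX3, TYR, TYRP1, DCT, PMEL and MLANA held ATAC-seq peaks, which mark open chromatin, in all 4 ATAC-seq libraries of the same 2 groups. Windows of genes of other cell types also held peaks in all 4. The globin cluster of 11p15.4 had 2 to 3 per library and the type II keratins 24 to 40. Holding a peak therefore does not tell cell types apart, and the 451Lu label was checked in no other way.

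The libraries of resistant cells had fewer H3K9me3 islands, over less of the genome, and with weaker enrichment. The part of sequencing depth or ChIP efficiency in this was not tested. The parental libraries listed 61888 and 70879 islands and the resistant libraries 40010 and 50181, or 66384 ± 6358 and 45096 ± 7192 (SD, n = 2 per group). The islands covered 327 and 337 Mb in parental cells and 288 and 267 Mb in resistant cells. Fold, the deposited ratio of ChIP to input reads after 1 scaling factor per library, had a median of 2.17 and 2.20 in the parental and of 1.69 and 1.83 in the resistant islands. The groups did not overlap in any of these 3 measures, and with 2 libraries against 2 the smallest exact two-sided permutation p is 0.33. Islands with a fold under 1.5 made up 17.8% and 17.2% of the parental lists but 37.3% and 30.6% of the resistant lists. Shared bases divided by all covered bases came to 0.560 between the parental libraries, 0.508 between the resistant libraries and 0.414 to 0.425 across the groups.

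Losses outnumbered gains by 5.78 to 1. Lost regions made up 17.7% of all regions and gained regions 3.06%, and these shares are the background for every count of lost and gained regions that follows. The lost regions spanned 60.7 Mb with a median length of 4000 bp, and the gained regions 15.8 Mb with a median of 6000 bp. Over all lengths together, lost regions had a median parental fold of 2.36 and 2.39, against 2.27 and 2.31 in common ones, which were longer. Gained regions were weakly enriched, with a median resistant fold of 1.53 and 1.63 against 1.80 and 1.93 in the common regions of the same libraries. Median input in gained regions was 35.9 and 36.9 reads per kb, against 34.7 and 35.2 in the common regions of the same libraries. In lost regions it was 25.3 and 26.25 per kb, against 30 and 31.2 in the common regions of the parental libraries. When islands had to have a deposited false discovery rate under 0.01 and a fold of at least 1.5, named strict islands here, 1265 of 69238 regions were gained (1.83%) and 14161 lost (20.5%). The ratio of losses to gains then rose to 11.19, whereas it was 1.64, with 7152 lost and 4365 gained, when each list was cut to its best islands at the length of the shortest list. Fewer libraries have to agree when 1 is left out, and the counts then rose. Without resistant replicate 1, which had the shortest list, 17063 regions were lost and 9342 gained, a ratio of 1.83. Without resistant replicate 2 these were 19328 and 6219, without parental replicate 1 27208 and 3275, and without parental replicate 2 21332 and 3872. A lost region is one that no resistant list holds, so reads there are not known for resistant cells. In such bulk samples loss of the mark, of the DNA or of a share of the cells cannot be told apart, nor can a less efficient ChIP.

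With all islands, losses were short. Of the regions between 2.5 and 5 kb, 24.9% were lost, of those between 10 and 20 kb 4.03%, and of those between 20 and 50 kb 0.162%, which is 4 of 2472. None of the 571 regions over 50 kb was lost or gained, since all 571 were called in every library. Merging makes a region longer the more libraries call it, so length and class are not independent. With strict islands the longest lost region spanned 118600 bp. In each class of length under 20 kb, lost regions had a lower median parental fold than common ones. From 5 to 10 kb, where both kinds were frequent, it was 2.06 and 2.10 against 2.43 and 2.47. From 20 to 50 kb the 4 lost regions were higher, at 2.08 and 2.06 against 1.87 and 1.89.

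**Figure D1:**
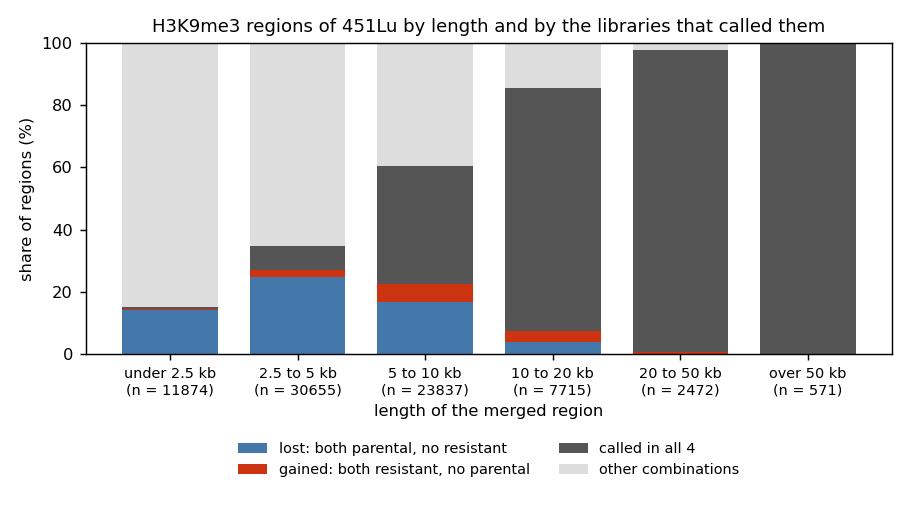
Share of H3K9me3 regions (y axis, %) in 6 classes of length (x axis) that were lost, gained, called in all 4 libraries or called in another combination. Lost regions peak at 24.9% in the class of 2.5 to 5 kb, and all regions over 50 kb were called in all 4 libraries.

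Among the strongest losses was a 25.4 kb region inside the type I interferon cluster of 9p21.3, at chr9:21203801-21229200, also the longest region lost when all islands were used. It covers a stretch with IFNA10, IFNA16 and IFNA17, genes for antiviral alpha interferons that were named after the values were seen. Parental replicate 1 had 1010 ChIP and 367 input reads there and parental replicate 2 had 1363 and 513, or folds of 4.0 and 3.57. Neither resistant library called an island in it. Across the whole interferon window, the islands covered 6.76% and 6.68% in parental cells and 0% and 0.48% in resistant cells, and 3 of its 8 regions were lost. Resistant replicate 2 had 30 input reads per kb in the small part it still covered, against 18.4 per kb in the islands of parental replicate 1. The same window held 18 and 23 ATAC-seq peaks in parental and 19 and 21 in resistant cells, and no ATAC-seq library had a peak inside the lost region itself.

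Several other strong losses lay at named genes. On the X chromosome, chrX:9680601-9696400 had the highest fold among the 11 named lost regions, at 4.99 and 5.25, and overlapped the ends of TBL1X, a subunit of a corepressor complex, and of GPR143, a receptor of the melanosome. The region chr11:14612001-14630000 lay in PSMA1, a proteasome subunit, with folds of 3.34 and 3.96. Another, chr11:62284401-62300000, lay in AHNAK, which encodes a very large scaffold protein, with folds of 2.99 and 3.09. These 4 genes were matched after the values were seen. The other regions lost with many reads carried no gene in the windows used. They were chr3:20948801-20965800 with folds of 3.03 and 3.48, chr1:184254801-184265000 with 4.45 and 3.27, chr4:139250801-139268200 with 2.44 and 2.56, and chr15:99954401-99966400 with 2.73 and 3.35. Long but weaker losses were chr2:123644001-123665400 with folds of 1.52 and 1.69, chr2:48277201-48298400 with 1.65 and 2.10, and chr6:118646001-118666200 with 2.51 and 2.02. The last was not called lost when 50% of the region had to be covered, because parental replicate 1 covered only 8.80 of its 20.2 kb.

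The gained regions with most reads were broad and moderate. On chromosome 5, chr5:162215401-162265000 spanned 49.6 kb with resistant folds of 1.68 and 1.89, and chr5:161803201-161847000 spanned 43.8 kb with folds of 1.68 and 1.96. The region chr2:16420201-16445000 had folds of 2.21 and 2.28, chr7:145119401-145146600 had 1.85 and 2.24, and chr5:165415801-165443800 had 1.61 and 1.71. On chromosome 22, chr22:48892601-48905000 had folds of 2.17 and 2.22 and lay at the start of TAFA5, which encodes a small secreted protein of the nervous system. The clearest enrichment was at the end of the short arm of chromosome 1, where chr1:4926801-4943800 had folds of 2.66 and 3.19, chr1:5203001-5221000 had 2.73 and 2.81, and chr1:5178801-5199200 had 2.70 and 2.44. One of the 4 longest gained regions, chr17:19820201-19849400 in AKAP10, had fewer ChIP than scaled input reads, with folds of 0.756 and 0.771, on 72.3 and 73.6 input reads per kb. It was not among the gained regions of the strict islands. TAFA5 and AKAP10 were matched after the values were seen.

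Gained and lost regions were then counted in windows of 1 Mb. Of 2844 windows with any region, 1810 held lost but no gained regions, 189 held gained but no lost regions, and 639 held both. Most gains fell at chr1:4000001-5000000, with 25 gained and 2 lost regions. Islands covered 20.02% and 18.6% of it in parental cells and 60.5% and 55.4% in resistant cells. The next window, chr1:5000001-6000000, went from 9.08% and 10.9% to 42.4% and 37.4%. AJAP1, a gene for an adherens junction protein, lies in this part of chromosome 1. The gene-poor window chr2:22000001-23000000 held 21 gained and no lost regions, and its cover went from 18.3% and 19.1% to 68.0% and 64.8%. In chr5:165000001-166000000 the cover went from 14.3% and 14.9% to 44.9% and 37.7%, and in chr10:132000001-133000000 from 9.68% and 8.60% to 26.8% and 26.8%. In these 5 windows the folds of the covered parts ranged from 1.62 to 3.45 in resistant cells, and the increase was also present in strict islands.

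In another pair of windows rich in gains, the new islands were hardly above input. The window chr22:36000001-37000000, which holds RBFOX2, APOL1 and MYH9, went from 16.3% and 19.04% to 49.8% and 35.6%, but its resistant folds were 0.943 and 1.08. In chr3:80000001-81000000 the cover went from 26% and 23.8% to 75.3% and 69.6%, with resistant folds of 1.03 and 1.09. Input reads per kb there were 1.67 to 1.78 times the library median in both windows, in parental and resistant cells alike. In strict islands the cover of the window on chromosome 22 was instead lower in resistant cells, at 1.56% and 2.42% against 7.82% and 7.94%, and the groups of the window on chromosome 3 overlapped, at 1.02% and 9.24% against 3.14% and 7.16%.

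Losses were densest on the short arm of chromosome 7 and on chromosome 6. Of the 10 windows with most losses, 5 lay between 15 and 26 Mb of chromosome 7. The window chr7:20000001-21000000, with MACC1, a regulator of MET, and ITGB8, an integrin that activates TGF-beta, held 40 lost and no gained regions. Its cover went from 41.3% and 38.7% to 8.22% and 9.20%, and in strict islands from 26.4% and 24.9% to 7.04% and 7.80%. Islands in the 5 windows were weakly enriched, with parental folds of 1.56 to 1.73 against medians of 2.17 and 2.20 over all parental islands. The window chr7:15000001-16000000, with the homeobox gene MEOX2, went from 37.2% and 33.7% to 5.10% and 6.42%, and chr7:18000001-19000000, which lies mostly in the histone deacetylase gene HDAC9, from 34.8% and 37.3% to 8.72% and 10.1%. Input moved with these losses. Over the 44 measured windows in the first 56 Mb of chromosome 7, median input per kb of island was 1.24 and 1.26 times the library median in parental cells and 0.937 and 0.944 times in resistant cells. Of 1032 windows of the genome with at least 50 kb of islands in each library, 29 had relative input at least 1.3 times lower in both resistant than in both parental libraries, 20 of them on this arm, and none had it as much higher. The part of input in the losses on this arm was not tested.

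On chromosome 6, 33.0% of regions were lost, 1571 in number, and 14 were gained. Among strict islands 1549 were lost and 14 gained. The gene-poor windows from 141 to 142 Mb and from 164 to 165 Mb went from 24.8% and 25.6% to 2.12% and 4.74%, and from 30.7% and 31.8% to 5.22% and 4.88%. Median input per kb in common regions of chromosome 6 was 25.5 in parental and 27.4 in resistant cells, a ratio 0.925 times the median ratio over chromosomes. No region was gained on the X chromosome, where 173 were lost, and 10 were gained against 501 lost on chromosome 9.

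Whether gains outnumbered losses on a chromosome depended on the islands used. With all islands, chromosome 20 had 263 gained and 29 lost regions and chromosome 22 had 163 and 21, the only ones of 23 chromosomes with more gains than losses. Chromosome 17 had 151 and 152. With strict islands, chromosome 20 had 17 gained and 340 lost, chromosome 22 had 11 and 114, and losses outnumbered gains on all 23. Chromosomes 22 and 20 had the highest input in common regions, at 47.9 and 45.6 reads per kb in parental cells. Across the 23 chromosomes, the share of gains among changed regions had a Pearson correlation of 0.896 and a Spearman correlation of 0.771 with resistant input per kb. Without chromosomes 20 and 22, Pearson's r was 0.741. With strict islands on all 23, Pearson's r was 0.0566 and Spearman's rho 0.457. These correlations only describe chromosomes, which share libraries, and carry no test.

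**Figure D2:**
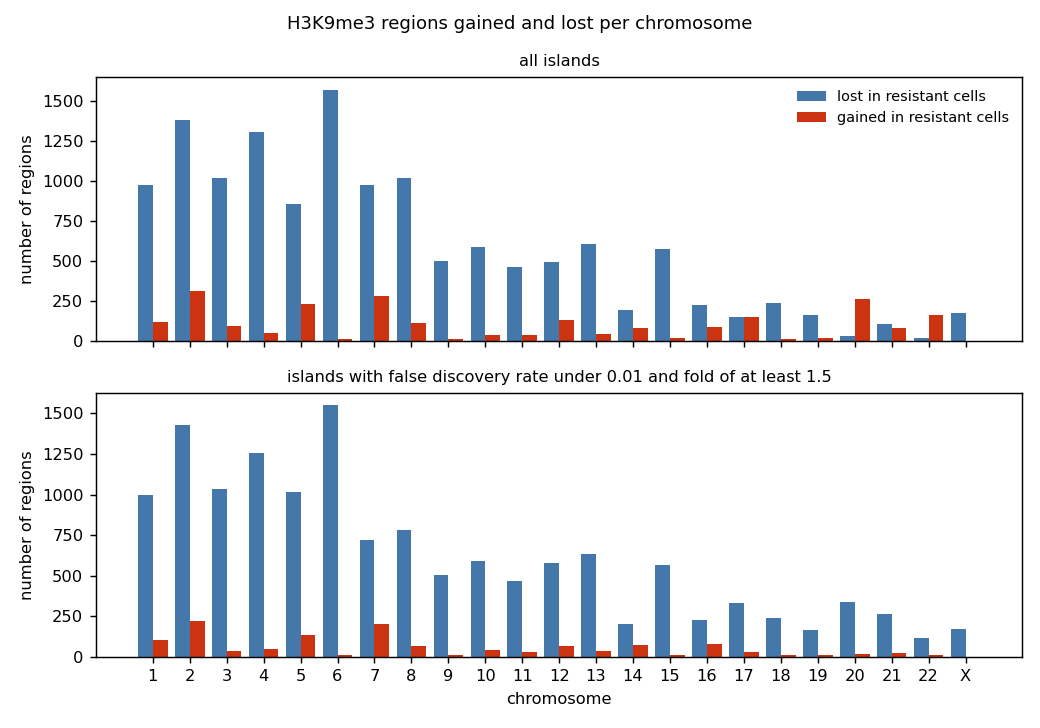
Number of H3K9me3 regions lost (blue) and gained (red) in resistant cells (y axis) on each chromosome (x axis), for all islands (top) and for strict islands (bottom). Chromosomes 20 and 22 have more gains than losses at the top, with 263 against 29 and 163 against 21, and fewer at the bottom.

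The zinc finger gene clusters, which encode the KRAB zinc finger repressors, kept H3K9me3 but with narrower cover and lower enrichment. Over 15 windows spanning 17.8 Mb, islands covered 68.5% and 69.4% in parental cells and 62.4% and 60.6% in resistant cells. The fold over their islands went from 3.63 and 3.64 to 2.73 and 2.85. The cover was below both parental values in both resistant libraries in 14 of 15 windows. The exception was 7q11.21, with 48.5% and 53.1% against 50.8% and 47.4%. Of all 109 windows of genes and gene clusters used here, 61 were covered less and 24 more in both resistant libraries. Mean resistant cover was 0.892 times the parental in the zinc finger windows and 0.836 times over the genome. The median fold over all islands was 0.804 times the parental. Of the 496 regions in the zinc finger windows, 51 were lost (10.3%), against 17.7% of all regions, and 1 was gained.

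The difference in cover varied between clusters. At 3p21.31, from ZNF445 to ZNF501, the cover went from 53.4% and 56.2% to 26.5% and 20.8%. At 1q44, from ZNF695 to ZNF124, it went from 77.1% and 80.1% to 51.6% and 45.1%, and at 19p13.2, from ZNF627 to ZNF490, from 76.5% and 73.8% to 52.4% and 50.9%. The neighbouring 19p13.2 window, from ZNF559 to ZNF562, went from 63.5% and 64.6% to 50.3% and 46.4%. Next to the centromere at 19p12 the difference was small, from 81.8% and 83.2% to 80.5% and 78.9%. Cover at 19q13.41, from ZNF613 to ZNF331, went from 90.6% and 90.9% to 80.9% and 80.7%, and at 19q13.12 from 86.0% and 85.3% to 80.4% and 77.7%. The 19q13.31 and 19q13.43 clusters went from 84.7% and 82.7% to 76.4% and 75.3% and from 64.4% and 66.2% to 61.4% and 59.4%. At 10p11.21 the cover went from 16.6% and 17.1% to 10.4% and 9.93%.

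Other gene clusters behaved in different ways. The HOX clusters hold the homeobox genes of body patterning. HOXA went from 13.9% and 12% to 2.0% and 1.1% with 6 of 8 regions lost, and HOXD from 15.1% and 18.2% to 4.3% and 1.5% with 3 of 9 lost. HOXA lies on the arm of chromosome 7 with lower resistant input. HOXC had no island in any library, and HOXB went from 1.47% and 2.40% to 7.93% and 2.67% at resistant folds of 1.08 and 1.40. In strict islands HOXB was instead lower, at 0% and 0.533% in resistant cells against the same parental values. The protocadherin cluster at 5q31.3, a set of neuronal adhesion genes, stayed at 71.3% and 71.2% against 71.8% and 66.7%, and its groups overlapped. So did the sum over 12 olfactory receptor windows, at 5.01% and 5.77% against 5.44% and 5.74%, where 6 windows were covered less and 4 more in both resistant libraries. Within it, the olfactory receptors of 17p13.3 went from 29.0% and 31.8% to 46.4% and 41.5%, but in strict islands from 24.04% and 25.6% to 26.2% and 28.8%. Those of 1q44, with 8 of the 10 gained regions, went from 4.29% and 5.0% to 7.48% and 10.7%, while those of 6p22.1 went from 10.9% and 13.27% to 5.57% and 6.87% and those of 11q12.1 overlapped.

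Cancer-testis genes are silent in most adult tissues. Of their 7 windows, all on the X chromosome, 3 were covered less in both resistant libraries and 3 had no island. Over the 7 the cover went from 4.68% and 4.50% to 2.11% and 2.55%. Of their 52 regions 10 were lost (19.2%) and none gained, a share close to the 17.7% of all regions and below the 28.1% of the X chromosome. The MAGEA and GABRE window went from 10.98% and 11.05% to 5.16% and 7.64%. Of the imprinted domains, 15q11.2 went from 24.6% and 26.1% to 20.9% and 20.02%, and the IGF2, H19 and KCNQ1 domain from 10.5% and 10.2% to 6.50% and 5.02%. The domain of PEG10 and SGCE, by contrast, went from 13.07% and 12.5% to 18.1% and 21%, with resistant folds of 1.5 and 1.55 against 2.67 and 2.74. In strict islands its groups overlapped, at 13.07% and 12.5% against 9.80% and 12.6%. The keratin-associated genes of 21q22.11 were also covered more, at 56.9% and 60.3% against 72.0% and 65.1%.

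**Figure D3:**
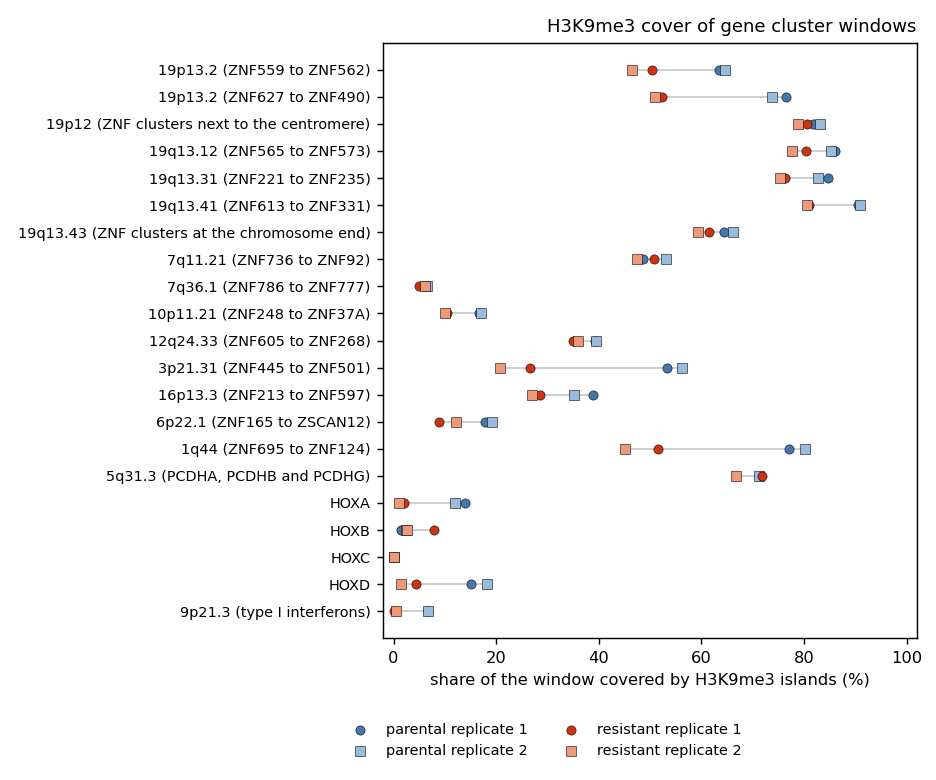
Share of each gene cluster window covered by H3K9me3 islands (x axis, %) in the 4 libraries (symbols), for zinc finger, protocadherin, HOX and interferon clusters (y axis). Both resistant libraries (red, orange) lie below both parental libraries (blue, light blue) in 14 of the 15 zinc finger windows, and the symbols of HOXC lie on each other at 0. Of all 109 windows, plotted or not, 61 were covered less in both resistant libraries.

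Long genes, many of them neuronal adhesion or signalling genes that are silent in other tissues, moved in both directions. Over 40 windows the cover was lower in both resistant libraries in 23 and higher in 13, against 61 and 24 of all 109 windows. Among their 1066 regions 154 were lost and 80 gained (14.4% and 7.50%, against 17.7% and 3.06% of all regions). EYS, a retinal matrix gene on chromosome 6, had the most lost regions, where 33 of 76 regions were lost and the cover went from 9.46% and 11.4% to 0.38% and 1.15%. PARK2, which encodes the ubiquitin ligase parkin, lost 10 of 32 regions and went from 6.22% and 7.05% to 1.35% and 1.95%. PARK2 also lies on chromosome 6, where 33.0% of all regions were lost, a share that EYS passed and PARK2 did not. The heparan sulphate proteoglycan gene GPC5 went from 5.95% and 8.0% to 2.53% and 2.09%, the receptor kinase gene ERBB4 from 6.15% and 7.52% to 3.13% and 2.10%, and the phosphodiesterase gene PDE4D from 15.49% and 15.45% to 11.3% and 10.2%. The glycosyltransferase gene GALNTL6 went from 4.86% and 5.75% to 2.37% and 2.51%. The neurexin gene NRXN3 was at 2.36% and 2.13% against 1.80% and 1.11%.

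DPP6, which encodes an auxiliary subunit of potassium channels, had the most gained regions of the 40 windows, 18 of its 62, and none lost. Its cover went from 4.24% and 3.27% to 26.7% and 18.9%, with resistant folds of 2.28 and 2.54 over the islands and parental folds of 3.53 and 4.24 over the few it had there. Its relative DPP10 went from 14.4% and 12.5% to 35.7% and 29.0%, with 13 of 77 regions gained and resistant folds of 1.63 and 1.77. OPCML, a cell adhesion gene, went from 2.96% and 2.76% to 9.53% and 9.87% at folds of 2.54 and 2.89, and 8 of its 34 regions were gained. Further genes with more cover were CNTNAP2, from 2.60% and 2.74% to 7.63% and 9.37%, CTNNA2, from 9.78% and 9.27% to 20.2% and 17.1%, and WWOX, a gene at a fragile site, from 5.91% and 4.73% to 14.4% and 14.7%. CDH13 went from 4.82% and 5.45% to 7.07% and 6.40%.

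Other long genes with more cover had islands near the input level. ROBO1, an axon guidance receptor, went from 37.2% and 37.9% to 80.3% and 71.3%, but the folds over its islands were 1.17 and 1.16 in parental and 0.949 and 0.981 in resistant cells. CADM2 went from 11.3% and 9.60% to 33.5% and 27.1% at resistant folds of 0.921 and 0.980, and MACROD2 from 70.4% and 67.9% to 89.9% and 86.3% at 1.24 and 1.28. In strict islands the direction of the means turned in all 3. MACROD2 then went from 25.4% and 19.8% to 5.27% and 7.40%, ROBO1 from 4.72% and 7.73% to 3.37% and 2.62%, and CADM2 from 2.89% and 1.95% to 0.545% and 1.95%. Input over the ROBO1 islands was 55.8 reads per kb in parental replicate 1 and 69.0 in resistant replicate 2, against library medians in common regions of 30 and 35.2.

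**Figure D4:**
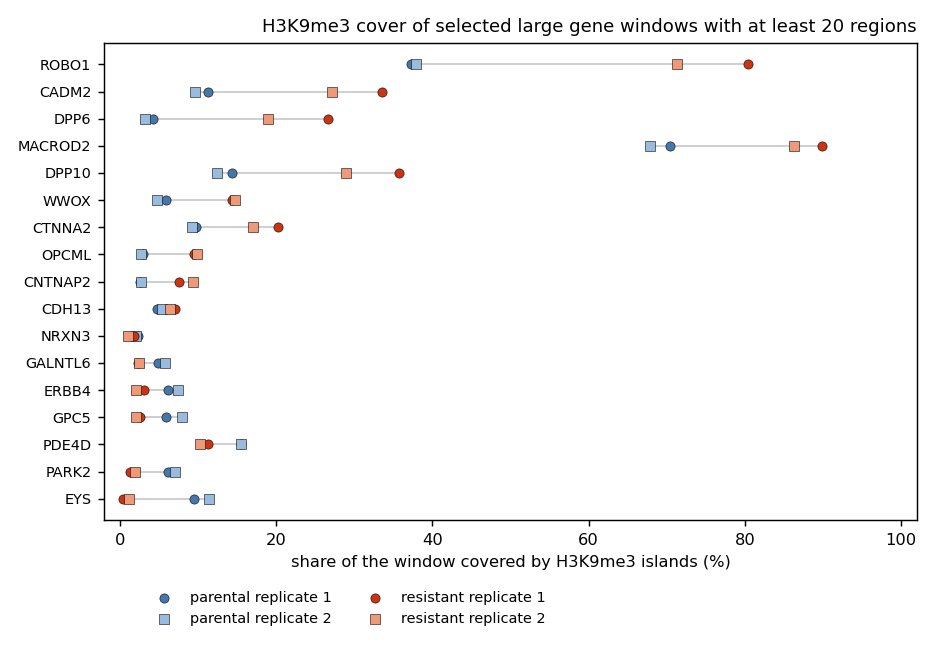
Share of each long gene window covered by H3K9me3 islands (x axis, %) in the 4 libraries (symbols), for genes with at least 20 regions (y axis), ordered by the difference between the group means. ROBO1, CADM2, MACROD2, DPP6 and DPP10 show more cover in both resistant libraries and EYS and PARK2 less. The folds over the islands, which are not plotted, are near 1 for ROBO1 and CADM2, and with strict islands the means of ROBO1, CADM2 and MACROD2 turn in direction.

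Windows around 18 genes or gene pairs of melanocytes and drug resistance held 72 regions. Of these 17 were lost (23.6%, against 17.7% of all regions) and 1 was gained (1.39%, against 3.06%). The cover was lower in both resistant libraries in 7 of the 18 windows and higher in both in 3, against 61 and 24 of all 109 windows. The pigment gene DCT, which encodes dopachrome tautomerase, had 5 of its 9 regions lost, and its cover went from 15.6% and 14.3% to 2.90% and 1.70%. PAX3, a transcription factor of the neural crest, went from 10.3% and 12.5% to 1.90% and 2.90% with 3 lost regions, and the pigment gene TYRP1 from 5.70% and 5.30% to 0% and 0% with 2. EGFR, a growth factor receptor whose window lies on the short arm of chromosome 7, went from 5.27% and 5.80% to 1.53% and 2.20% with 3 lost regions. ZEB1, a factor of mesenchymal states, went from 10.8% and 8.27% to 4.40% and 3.80%, with 2 lost. The window of the cell cycle inhibitors CDKN2A and CDKN2B also had 2 lost regions, but its groups overlapped, at 11.3% and 8.10% against 5.20% and 8.10%. PDGFRB, a growth factor receptor gene, went from 1.4% and 1.3% to 3.3% and 4.0%, and WNT5A, a signalling ligand gene, from 1.0% and 0% to 2.8% and 2.8%. The 1 gained region lay in the window of SOX10, the regulator of melanocyte identity and the third window with more cover, where resistant folds were 0.856 and 0.936, below input, and no library had a strict island. PMEL, MLANA, AXL and CHAF1A, the gene of the p150 subunit of the histone chaperone CAF-1, had no island in any library.

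The window of MITF, the central transcription factor of melanocytes, was covered to 100% in all 4 libraries without being enriched. Its folds were 1.11 and 1.07 in parental and 0.966 and 0.965 in resistant cells, on 181 input reads per kb in parental replicate 1 and 164 in resistant replicate 2. After the centring described with the common regions, its 1 common region was called higher in resistant cells by edgeR, with a log2 change of 0.19. It lies in a long stretch of high input. The 35 common regions with at least 3 times the library's median input in every library summed to 14.7 Mb, and 14.4 Mb of these lay on chromosome 3. They held 12.5% to 14.1% of the ChIP reads in common regions on 4.93% of the length. The longest common region of all, chr3:68747801-72094200, was one of them. A second stretch lay between 69 and 74 Mb of chromosome 11, where 5 windows of 1 Mb in a row had at least 2 times the median input in all 4 libraries and a median fold of 0.998 in parental replicate 1. Islands there mark many reads, not enrichment over input.

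The common regions allowed the level of the mark to be compared, since each of the 4 libraries has ChIP and input reads there. These reads come only from a library's own islands, which can cover different bases of a region. At chr19:53600601-53606200 the islands covered 5.6 and 5.2 kb in parental and 2.8 and 2.2 kb in resistant cells. At chr22:49075601-49257800 they covered 125.2 and 125 kb against 181.4 and 180.4 kb. Reads in the uncovered parts are not known. On the scale of the deposited fold, both resistant libraries lay below both parental libraries in 11409 of 20422 regions with at least 10 input reads per library (55.9%), and above both in 967 (4.74%). The median change was −0.29 on the log2 scale. Each library was therefore also centred on its median ratio, so that a region is read against the typical common region, and edgeR's quasi-likelihood test with Benjamini-Hochberg adjustment was fitted to ChIP reads with the input as offset. On this scale 338 regions were higher in resistant cells (1.66%) and 261 lower (1.28%) at an adjusted p under 0.05. Higher regions made up 56.4% of the calls after centring and 2.28% on the deposited scale, where 71 regions were higher (0.348%) and 3044 lower (14.9%). All 261 lower regions were also called lower on the deposited scale, whereas 71 of the 338 higher ones were called higher there. Limma on the centred log2 ratio called no region in either direction and had 2632 regions at an unadjusted p under 0.05, against 3307 by edgeR. Without resistant replicate 2, edgeR called 167 regions lower.

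The regions called higher and lower were of different kinds. Those lower had been strongly enriched, with a median parental fold of 3.49 and 3.68 that went to 1.75 and 1.88, and a median length of 15.2 kb. Those higher were long, with a median of 45.2 kb, and weakly enriched before, at 1.53 and 1.53 against 1.78 and 1.90 in resistant cells, with a median parental input of 42.2 reads per kb against 30.5 over all tested regions. Regions with a parental fold of 4 or more had a median centred change of −0.36, and 114 of the 1265 were called lower and 1 higher. Regions with a parental fold under 1 had a median change of 0.39, and 46 of 176 were called higher and none lower. The parental fold enters both of these measures, so this trend is a description.

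**Figure D5:**
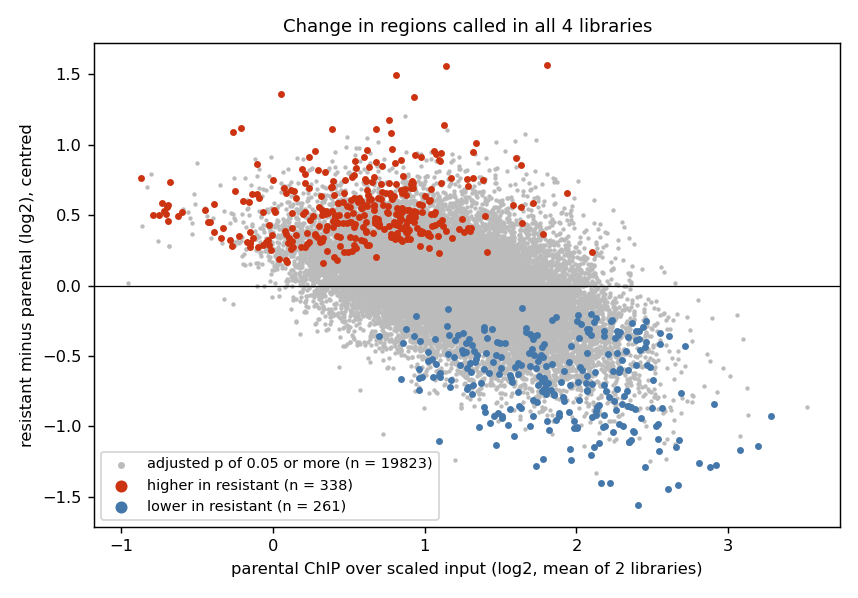
Change of each common region in resistant cells (y axis, log2 of ChIP over input, centred per library) against its parental level (x axis, log2 of ChIP over scaled input, mean of 2 libraries), with the 338 regions called higher in red and the 261 called lower in blue. Calls lie to the left above 0 and to the right below 0.

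Zinc finger clusters held a number of the lower regions. Of 279 tested regions in the 15 windows, 30 were lower (10.8%, against 1.28% of all tested) and 1 higher. Their median change was −0.15 after centring, against 0.01 over all tested regions. Strongly enriched regions moved in the same direction across the genome. Tested regions with a parental fold of 3 to 4 had a median change of −0.16, with 1.92% called lower. Those with a fold of 4 or more had −0.36, with 9.01% called lower. The part of parental fold in the cluster values was not tested. Chromosome 19 held 33 of the 261 lower regions and 1 of the 338 higher ones, with 492 regions tested. At the end of its long arm, chr19:58659601-58816400 went from folds of 5.89 and 6.31 to 3.79 and 3.95 (log2 change −0.36 ± 0.05 SE, edgeR adjusted p 2.7e-05), and chr19:58012201-58238400 went from 4.35 and 4.73 to 2.77 and 3.0. In 19q13.12, chr19:37191601-37262400 went from 5.75 and 5.96 to 3.44 and 3.71. The largest fall among all regions named by size was chr19:53600601-53606200, at the zinc finger gene ZNF160, from 6.29 and 6.43 to 1.94 and 1.92 (−1.42 ± 0.24 SE, edgeR adjusted p 9.0e-04). On chromosome 17, chr17:4968401-5028600, which holds ZFP3 and ZNF232, went from 4.54 and 4.70 to 2.68 and 2.68. In these 5 regions both resistant libraries lay below both parental libraries. The regions were chosen by adjusted p or size of change in these same data, so this separation adds no support. Limma called none of the 5 (limma adjusted p 0.30 to 0.50).

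The lower region with the smallest adjusted p was chr17:77932601-77946000 in TBC1D16, a regulator of Rab GTPases. It went from folds of 3.85 and 4.19 to 1.57 and 1.67 (log2 change −1.02 ± 0.11 SE, edgeR adjusted p 3.5e-06). Close to the end of the long arm of chromosome 7, chr7:155778201-155824400 went from 4.37 and 4.80 to 2.16 and 2.27. On the long arm of chromosome 8, chr8:129909201-130165800 went from 2.08 and 2.12 to 1.31 and 1.32, and chr8:130510001-130547600 from 2.81 and 2.58 to 1.47 and 1.38. Short regions with large falls were chr2:225929801-225935000, from 6.29 and 4.75 to 1.62 and 2.07, chr7:85313001-85325200, from 2.32 and 4.75 to 1.02 and 1.31, and chr12:26990801-26994200, from 3.96 and 2.99 to 1.07 and 1.34. In these 3 the parental libraries differed more from each other than in the longer regions. The call at chr7:85313001-85325200 was lost without parental replicate 2 or resistant replicate 1 (edgeR adjusted p 0.27 and 0.11), and its direction turned without input. That of chr12:26990801-26994200 was lost without parental replicate 1 or either resistant replicate (edgeR adjusted p 0.16, 0.18 and 0.076). TBC1D16, ZNF160, ZFP3 and ZNF232 were matched after the values were seen.

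Among the higher regions, those on chromosome 22 were enriched in both states. At the 3' part of TAFA5, chr22:49075601-49257800 went from folds of 1.78 and 1.82 to 2.78 and 2.65 (log2 change 0.89 ± 0.05 SE, edgeR adjusted p 1.5e-10), and chr22:49418001-49551400 nearby went from 1.46 and 1.57 to 2.38 and 2.27. Input per kb at the first was 46.3 and 47.3 in parental and 39.7 and 42.6 in resistant cells. On chromosome 17, chr17:52445001-52773800 went from 1.49 and 1.58 to 1.84 and 1.87. All 3 were also higher on the deposited scale.

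The other higher regions with the smallest adjusted p lay on chromosome 3, and 4 of the 5 stayed close to the input level. Folds in chr3:67955201-68739600 were 0.903 and 0.893 in parental and 1.10 and 1.11 in resistant cells, on 105 to 113 input reads per kb. In chr3:74502401-74982400, next to the neuronal adhesion gene CNTN3, they were 0.871 and 0.874 against 1.08 and 1.07. In chr3:83855401-85013800, at the edge of CADM2, they were 1.04 and 1.08 against 1.11 and 1.14. In chr3:61386001-63126400 they were 0.891 and 0.889 against 0.902 and 0.895, a call that was lost on the deposited scale (adjusted p 0.40 by edgeR). The fifth, chr3:76805801-77084400, went from 1.02 and 1.09 to 1.38 and 1.40. When only regions with a fold of at least 1.5 in all 4 libraries were tested and centred among themselves, a choice made after seeing the data, 119 of 13105 were higher and 80 lower.

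The higher regions named by size were short. In chr6:117225801-117231200, at the endocrine transcription factor gene RFX6, folds went from 1.89 and 1.53 to 2.99 and 3.30, and in chr8:115142601-115148800 from 1.71 and 1.5 to 2.85 and 2.82. A pair of regions lay on the short arm of chromosome 7, where resistant input was lower. They were chr7:23168601-23175800 in KLHL7, from 0.793 and 0.942 to 1.28 and 1.83, and chr7:23243201-23250000, from 0.832 and 0.833 to 0.952 and 2.08, where the resistant libraries differed from each other by more than resistant replicate 1 differed from the parental ones. On the deposited scale the call of KLHL7 held (edgeR adjusted p 0.040), and those of the other 3 did not (edgeR adjusted p 0.057, 0.057 and 0.081). With 1 library left out in turn, the call at chr8:115142601-115148800 was lost each time (edgeR adjusted p 0.075 to 0.12). The call at RFX6 was lost without parental replicate 2 or either resistant replicate (edgeR adjusted p 0.20, 0.088 and 0.10). That of KLHL7 was lost without parental replicate 1 or resistant replicate 2 (edgeR adjusted p 0.11 each), and that of chr7:23243201-23250000 without parental replicate 1, parental replicate 2 or resistant replicate 2 (edgeR adjusted p 0.12, 0.12 and 0.49). Without input, 3 of these 4 changes turned in direction, the exception being chr8:115142601-115148800. CNTN3, RFX6 and KLHL7 were matched after the values were seen.

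Peaks of open chromatin were sparse in lost regions, and resistant cells had more of them per Mb in lost, gained and common regions. ATAC-seq peaks numbered 11.206 and 11.453 per Mb of lost regions in parental and 12.9 and 13.7 in resistant cells, a ratio of 1.17. Per Mb of gained regions they numbered 23.2 and 22.7 against 28.2 and 29.1, a ratio of 1.247, and per Mb of common regions 19.1 and 19.1 against 22.7 and 24.17, a ratio of 1.23. The whole peak lists of resistant cells were 1.11 times as long. H3K27ac is a mark of active promoters and enhancers. Only 1 of its 2 libraries per group was analysed here, so there is no replicate check. It went from 11.7 to 29.4 peaks per Mb of gained regions, from 7.99 to 10.2 in lost and from 15.7 to 22.8 in common regions, while the whole list grew 1.60 times.

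The gained and lost regions were also looked up in 4 H3K9me3 libraries of 451Lu that had not been used to choose them. Vector_NT carries a vector and an NT control, and shp150_AP1 carries a short hairpin RNA against p150 and over-expresses the AP-1 subunits c-JUN and c-FOS. The 2 vector_NT libraries called 90.4% and 83.9% of the lost regions, and the 2 shp150_AP1 libraries 41.1% and 34.0%. Of the gained regions, vector_NT called 32.4% and 23.9% and shp150_AP1 54.9% and 50.8%. Common regions were called at 99.1% and 98.1% in vector_NT and at 95.5% and 95.2% in shp150_AP1. The groups did not overlap in any of the 3 shares, for which the smallest exact permutation p is again 0.33. The list lengths differed too, with 76857 and 67147 islands in vector_NT and 63295 and 48704 in shp150_AP1. The part of list length in these shares was not tested, and the shares of all merged regions called were not computed. The series lists no input sample for shp150_AP1 replicate 1.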

How the data were processed

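The 4 island lists were analysed as deposited, in hg19. The submitters' processing notes list SICER, Bowtie2, MACS2, Picard, deepTools and STAR 2.5.3, and the role of each is not stated in these notes. The deposited columns hold counts of ChIP and input reads per island, a p-value, the fold (in each library 1 constant times the ratio of both counts, to within 1e-05 of its value) and a false discovery rate, with no limit on the p-value. Of the ATAC-seq and H3K27ac lists, with a score per peak by the authors, only positions were used. A table by the authors gives log2 fold changes and adjusted p-values for intervals of 451Lu.

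Islands overlapping by 1 bp or more were merged, and a region was called where any base was covered. Reads were summed over a library's islands in each common region. Regions with at least 10 input reads per library were tested with edgeR 4.0.16 (quasi-likelihood, R 4.3.3, adjusted p under 0.05), with the log of input reads plus the library's median log ratio as offset, and the fit was tested on simulated data. Alternatives used DESeq2 1.42.0, limma 3.58.1 with a pseudocount of 1, other scalings, filters and island sets, and each library left out. Pandas 2.3.3 and numpy 2.4.6 made the region tables.

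Members, lists and windows were chosen with earlier results of these data known. Named gained and lost regions are the 8 of each kind with most ChIP reads above scaled input in the weaker library and the 4 longest. Named common regions are the 8 of each direction with the smallest adjusted p and the 4 with the largest change and at least 50 input reads per library. Windows with at least 20 regions, and melanoma windows with a changed region, are named, as are further windows of interest. Genes outside the list of 109 windows were matched after values were seen. Some windows that meet these rules are not reported here. No sequence is shown.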

Additional observations from a re-analysis of the deposited data

How the results depend on the processing

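The number of gained regions, 2362, depended on the settings more than the number of lost regions, 13643. Gained regions numbered 3750 when 50% of a region had to be covered, 1265 with strict islands, 4365 at equal list length and 1215 when islands within 5 kb were merged. Lost regions numbered 7152 at equal list length, and stayed within 1.5 times in the other 3 of these settings (9492 to 14395). Leaving out 1 library gave 3275 to 9342 gained and 17063 to 27208 lost regions, since fewer libraries then have to agree. In each setting losses outnumbered gains. Of the common regions, 71 were higher and 3044 lower with the scaling of the deposited fold, 0 and 0 with limma, 1576 and 1137 with edgeR and no input, and 119 and 80 among regions with a fold of at least 1.5. The replicate number as a block gave 483 higher and 466 lower. Deviations of same-numbered libraries correlated at 0.00956 over 20422 regions. With 2 libraries per group this cannot tell whether same-numbered libraries were prepared together, which the labels do not say. DESeq2, with 7127 regions left without an adjusted p, called 335 and 267, and other input minimums gave 338 to 350 higher and 264 to 292 lower. Leaving out 1 library gave 241 to 294 higher and 167 to 244 lower regions, the lone library being assumed to vary like the other group, and the lowest count of lower regions came without resistant replicate 2. Without input, 4 named common regions changed direction, with log2 changes of −0.076 at chr6:117225801-117231200, −0.92 at chr7:23168601-23175800, −0.29 at chr7:23243201-23250000 and 0.44 at chr7:85313001-85325200. Of 271 alternative values of 24 named common regions, 217 kept their call and direction and 50 lost the call, 24 of these with limma. Of the 21 named gained and lost regions, 13 were no longer gained or lost when islands within 5 kb were merged. Of 109 windows, 61 were covered less and 24 more in both resistant libraries, and 68 and 17 with strict islands. Reads outside islands are not listed, so the depth behind a region that a library did not call is unknown.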

Other observations

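The authors' deposited table of 451Lu intervals names neither its assay nor its groups, so its direction is not known. In the authors' deposited table, the interval chr9:21100001-21240000, over the lost interferon region, has a log2 fold change of −8.53. Islands covered 24% and 26.8% of it in parental cells and 0% in both resistant libraries. Over the 762 intervals to which the authors' deposited table gives a negative log2 fold change past 0.05, islands covered 13.09% and 13.40% in parental and 9.58% and 8.80% in resistant cells. Over the 613 positive intervals of the authors' deposited table the cover was 11.6% and 11.7% against 11.5% and 10.4%, and over the 470 not past 0.05 it was 11.03% and 11.02% against 10.4% and 9.77%.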
